A study of Mus musculus with 5 samples.

Results

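The genes described here encode the proteins that choose splice sites in precursor messenger RNA. They are the SR proteins (symbols beginning Srsf), the heterogeneous nuclear ribonucleoproteins or hnRNPs (Hnrnp), the SF3A and SF3B subunits of the U2 particle, and the CDC-like kinases Clk1, Clk2 and Clk4. They were taken by gene symbol. The rule took 45 of the 51912 genes in the authors' deposited table: 3 CLK kinases, 11 SR proteins, 22 hnRNPs, 3 SF3A subunits and 6 SF3B subunits. The authors gave an adjusted p-value to 43 of them. The exceptions were Hnrnpa1l2-ps and Hnrnpa1l2-ps2, processed pseudogenes with means of 0.173 and 0.791 normalized reads, below the smallest mean that received an adjusted p-value (9.19).

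Gene expression was measured by RNA sequencing of polyadenylated RNA in C57BL/6 mice, 2 libraries labelled sham and 3 labelled stroke. In the stroke model a coated filament blocked the middle cerebral artery for 30 minutes, animals entered the study if laser Doppler flow had fallen by 80% or more, and a motor examination followed at 24 hours. The series title concerns TRIM9, a ubiquitin ligase of the brain, but the labels give no genetic change or drug in either group. What the sham operation consisted of, the tissue, the time of sampling, the age of the mice and whether each library came from its own animal are unstated in the sources used here.

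In splicing, SR proteins bind exonic enhancers through their RNA recognition motifs and recruit the spliceosome through domains rich in arginine and serine, while many hnRNPs bind silencers and oppose that choice. SF3A and SF3B are complexes of the U2 small nuclear ribonucleoprotein that settle it on the branch point of the intron. CLK kinases phosphorylate SR proteins in the nucleus, which releases them from storage in nuclear speckles, and many SR and hnRNP genes limit their own level through poison exons or retained introns that send their RNA to decay. In neurons these proteins also act in RNA export, transport along axons, stability and translation.

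The deposited table holds one mean, one fold change and one standard error per gene, and no column per library. For all 43 tested genes the whole reads in each library were recovered from those numbers (see the description of the processing). The libraries are called sham A and B and stroke A, B and C in order of size factor within each group, because the recovered values cannot be matched to the labels' own numbering. Size factors, which follow sequencing depth, were 0.945 and 0.734 in sham A and B and 1.16, 1.13 and 1.12 in stroke A, B and C. Values below are reads divided by these factors, called normalized reads. Markers of neurons, astrocytes, oligodendrocytes and microglia were all detected (6 of 6, 4 of 4, 4 of 4 and 4 of 4 had an adjusted p-value, and none was called). All 3 smooth muscle markers were called higher in stroke (median log2 fold change 1.32), and all 5 red blood cell markers (-3.58 in the median) and 2 of the 4 choroid plexus markers (-3.36 in the median over the 4) were called lower. The sham libraries stood apart from each other in several lists. Summed over the recovered genes of each marker list, choroid plexus genes (3 of 4 recovered) gave 646 normalized reads in sham A and 70.9 in sham B against 180 to 233 in the stroke libraries, and red blood cell genes (4 of 5 recovered) gave 1172 and 199 against 22.4 to 107. Microglial genes (4 of 4) gave 1742 and 696 against 1154 to 1636, oligodendrocyte genes (2 of 4) gave 5530 and 2487 against 3536 to 3717, endothelial genes (3 of 3) gave 2362 and 2826 against 3183 to 4401, and smooth muscle genes (3 of 3) gave 326 and 456 against 854 to 996. The part of these differences in the results below was not tested. In bulk tissue, fewer cells of a type and less RNA per cell cannot be told apart.

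One of the 43 tested genes was called, at a Benjamini-Hochberg adjusted p below 0.05 in the authors' DESeq2 Wald test. Hnrnpa0 rose in stroke, and no gene was called lower. The share of called genes was 2.33%, against 1.56% of all 17420 tested genes (0.775% higher and 0.786% lower), so the count lay near the background. An unadjusted p below 0.05 was reached by 7 of the 43 genes (Clk1, Hnrnpa0, Hnrnpa1, Hnrnpab, Hnrnpc, Hnrnpf and Sf3b4), against 10.5% of all tested genes. Fold changes are stroke over sham throughout. They were positive for 36 of the 43 genes, or 83.7%, against 47.2% of all tested genes, and against 53.7% of the 11519 tested genes with a mean of at least 5 reads per 1e+06 of the summed means (CPM), as all 43 have. The median log2 fold change of the 43 genes was 0.19, against -0.02 for all tested genes and 0.02 for those of at least 5 CPM. The standard errors of the single genes ran from 0.17 to 0.55.

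The subgroups differed in direction. The median log2 fold change was 0.34 for the 20 tested hnRNPs, 0.20 for the 6 SF3B subunits, 0.17 for the 11 SR proteins, 0.09 for the 3 SF3A subunits and -0.52 for the 3 CLK kinases. The choice of sham library moved some of these. The median log2 ratio of the stroke mean was 0.03 over sham A and 0.25 over sham B for the SR proteins, 0.00 and 0.07 for the SF3A subunits, 0.46 and 0.27 for the hnRNPs, and 0.31 and 0.22 for the SF3B subunits. In 14 of the 43 genes every stroke library lay above both sham libraries, and in 4 every stroke library lay below both. Among the 14945 tested genes with recovered reads, 12.5% lay above and 12.4% below in this way. Among the 9145 of these with at least 5 CPM, 14.3% lay above and 9.5% below. Outside the genes and lists named here, only means of up to 2500 were tried, so both shares hardly cover more abundant genes. With 3 libraries against 2, an exact two-sided permutation test cannot go below p = 0.1.

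**Figure D1:**
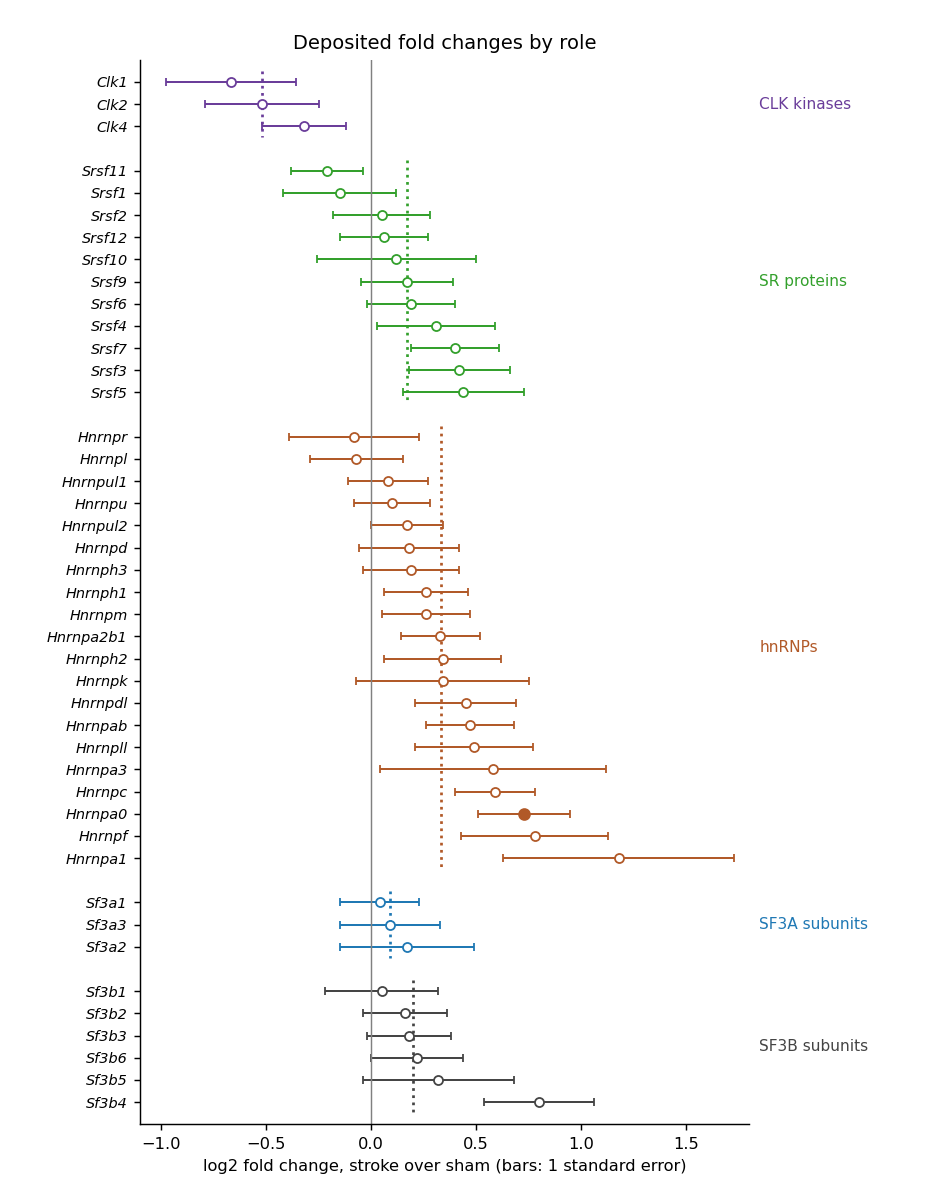
Deposited log2 fold changes (stroke over sham, horizontal axis) of the 43 tested genes, by role, with bars of 1 standard error and dotted lines at the subgroup medians. The filled point is Hnrnpa0, the only called gene. The 3 kinases lie at -0.67 to -0.32, left of 0, and 18 of the 20 hnRNPs lie right of it.

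The CLK kinases had the lowest fold changes of the 43 genes, and none passed the test. Clk1, whose own transcripts are held back as intron-containing RNA in the nucleus, had 1803 and 2604 normalized reads in sham A and B and 999, 1449 and 1711 in stroke A, B and C. All 3 stroke libraries were below the lower sham library, with stroke C close to it. The log2 fold change of Clk1 was -0.67 (SE 0.31, adjusted p = 0.38), and the stroke libraries averaged 1386 ± 360 (SD, n = 3). Clk2, a kinase of the same family that is also regulated by insulin signalling, had 809 and 653 normalized reads in the sham libraries and 411, 541 and 582 in the stroke libraries. Its log2 fold change was -0.52 (SE 0.27, adjusted p = 0.488). Clk4, the closest relative of Clk1, had 1209 and 1388 normalized reads in the sham libraries and 1010, 1016 and 1084 in the stroke libraries. Its groups did not overlap and its stroke libraries lay close together, and its log2 fold change was the smallest of the 3 kinases in size, at -0.32 (SE 0.20, adjusted p = 0.627).

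Summed over the 3 kinases, normalized reads were 3820 and 4645 in the sham libraries and 2420, 3006 and 3377 in the stroke libraries, a ratio of group means of 0.693. All 3 kinases kept every stroke library below both sham libraries, against 12.4% of all genes with recovered reads and 9.5% of those with at least 5 CPM. Sham A was the higher sham library for Clk2 and the lower one for Clk1 and Clk4. Relative to sham B alone the median log2 ratio of the kinases was -0.42, and relative to sham A alone it was -0.38. None of the kinases had a near-identical pseudogene copy, a measure defined below. Clk3, the remaining kinase of the family, was counted among the other SR kinases and SR-related genes. It had 1481 and 1000 normalized reads in the sham libraries and 895, 1018 and 1082 in the stroke libraries, so its groups overlapped, with a log2 fold change of -0.31 (standard error 0.26, adjusted p = 0.804). Per kilobase of annotated exons the mean levels were 211 normalized reads for Clk1, 197 for Clk4 and 113 for Clk2. The length here is all bases in any exon of any annotated transcript, so it grows with the number of transcripts annotated.

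**Figure D2:**
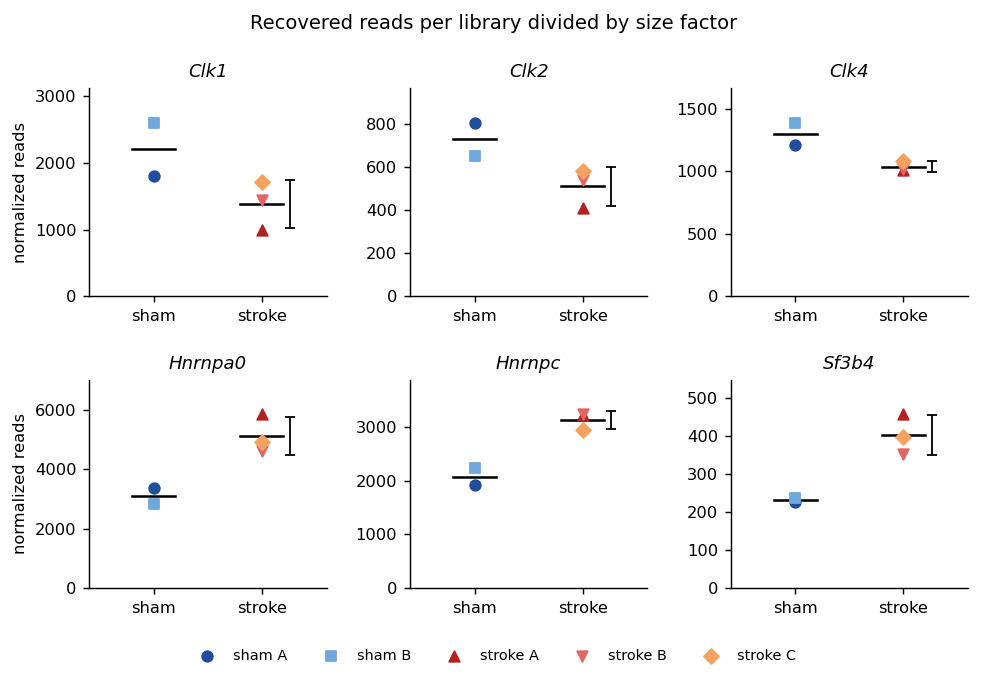
Normalized reads per library (vertical axis, from 0) of the 3 CLK kinases and of the 3 genes with the smallest p-values, Hnrnpa0, Hnrnpc and Sf3b4. Points are libraries, horizontal lines are group means, and the bars beside the stroke points are 1 SD over the 3 stroke libraries. In the upper row all stroke libraries lie below both sham libraries, and in the lower row all lie above both.

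The gene models of the kinases carry many transcripts that are not productive messages, as do those of the SF3B subunits. In GENCODE vM21 (GRCm38) the 3 kinases have 38 transcripts, of which 18 are annotated as retained intron, 6 as subject to nonsense-mediated decay and 10 as protein coding. Clk1 (chromosome 1, 58410189 to 58424066, minus strand) has 13 transcripts, with 7 of the retained-intron kind and 1 protein coding. Clk4 (chromosome 11, 51261730 to 51281766, plus strand) has 14, with 7 of the retained-intron kind. The 20 tested hnRNPs have 195 transcripts, 49 with a retained intron and 20 subject to decay, and the 11 SR proteins have 87, with 26 and 15. The 6 SF3B subunits have 29, with 18 and 1, a larger share with a retained intron than in the kinases. The 3 SF3A subunits have 11, with 3 and 0. The share over all genes was not counted. A read count per gene adds all of these up, so a change of splicing within a gene could not be seen.

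No SR protein passed the test. Their log2 fold changes ran from -0.21 to 0.44, and 9 of the 11 were positive. Srsf5, an SR protein whose level follows growth and insulin signals, had the highest of them. It had 2838 and 2454 normalized reads in the sham libraries and 4399, 3894 and 2474 in the stroke libraries. Stroke A and B lay above both sham libraries while stroke C lay at the level of sham B, and the log2 fold change was 0.44 (SE 0.29, adjusted p = 0.703).

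Srsf3, the smallest of the classical SR proteins and an adaptor for RNA export, had 1046 and 1521 normalized reads in the sham libraries and 1710, 1645 and 1810 in the stroke libraries. Srsf7, which binds RNA through a zinc knuckle and also serves in export, had 1167 and 966 against 1313, 1507 and 1407. These 2 were the SR proteins whose stroke libraries all lay above both sham libraries. They make up 18.2% of the 11, near the 12.5% of all genes with recovered reads and the 14.3% of those with at least 5 CPM. The log2 fold changes of Srsf3 and Srsf7 were 0.42 (SE 0.24, adjusted p = 0.572) and 0.40 (SE 0.21, adjusted p = 0.506).

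Srsf11, an SR-related protein of neuronal microexon splicing, was the one SR gene with all stroke libraries below both sham libraries. That is 9.09% of the 11, against 12.4% of all genes with recovered reads and 9.5% of those with at least 5 CPM. Srsf11 had 3172 and 3070 normalized reads in the sham libraries and 2672, 2727 and 2687 in the stroke libraries. Both groups were narrow, and the log2 fold change was small, at -0.21 (SE 0.17, adjusted p = 0.8). Srsf1, the founding member of the family and the one with the highest read count, had 3546 and 4394 normalized reads in the sham libraries and 3015, 3151 and 4587 in the stroke libraries. Its groups overlapped, and its log2 fold change was -0.15 (SE 0.27, adjusted p = 0.954).

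The remaining SR proteins overlapped between the groups. Srsf2, a speckle protein, had a log2 fold change of 0.05 (standard error 0.23), Srsf4 of 0.31 (SE 0.28), Srsf6 of 0.19 (SE 0.21) and Srsf9 of 0.17 (SE 0.22). Srsf10, which becomes a general repressor of splicing when it loses its phosphates in heat-shocked cells, had 591 and 1416 normalized reads in the sham libraries and 1008, 992 and 1265 in the stroke libraries. The stroke libraries of Srsf10 thus fell between the sham libraries, and the log2 fold change was 0.12 (SE 0.38). Srsf12, a relative of Srsf10, lay at 605 and 589 against 672, 606 and 591, with a log2 fold change of 0.06 (standard error 0.21).

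As a sum, the SR proteins lay slightly higher in all stroke libraries. Normalized reads of the 11 genes added up to 20066 and 19688 in the sham libraries and to 21642 ± 274 (SD, n = 3) in the stroke libraries, a ratio of 1.09. Per kilobase of annotated exons, Srsf5 and Srsf2 had the highest mean levels of the SR genes, at 805 and 798 normalized reads, and Srsf10 the lowest, at 151.

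The hnRNPs had the highest median of the subgroups and held the one call. Of the 20 tested genes, 18 had a positive fold change. In 10, every stroke library lay above both sham libraries (Hnrnpa0, Hnrnpa1, Hnrnpa2b1, Hnrnpab, Hnrnpc, Hnrnpdl, Hnrnpf, Hnrnph1, Hnrnpm and Hnrnpul2). That is 50% of the 20, against 12.5% of the 14945 genes with recovered reads and 14.3% of those with at least 5 CPM. Both background shares hardly cover genes with a mean above 2500, where several of these hnRNPs lie. Among the core particle and U2 auxiliary genes described below the share was 44.4% (12 of 27). In none of the 20 did every stroke library lie below. Summed over the 20 genes, normalized reads were 58780 and 72119 in the sham libraries and 84692, 81461 and 75584 in the stroke libraries, a ratio of 1.23.

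Hnrnpa0 encodes an A/B-type hnRNP that binds AU-rich elements of inflammatory messages and is a substrate of the stress kinase MAPKAPK2. Hnrnpa0 (ENSMUSG00000007836) is an intronless gene on chromosome 13 (58125879 to 58128556, minus strand, GRCm38) with 1 annotated transcript. It had 3365 and 2822 normalized reads in sham A and B and 5851, 4634 and 4912 in stroke A, B and C. Every stroke library was higher than both sham libraries, and the lowest stroke library exceeded the higher sham library by more than the sham libraries differed from each other. Hnrnpa0 rose by a log2 fold change of 0.73 (standard error 0.22, adjusted p = 0.0461 in the authors' Wald test), or 1.66-fold. Per kilobase of annotated exons, Hnrnpa0 had the highest mean level of the 43 genes, at 1612 normalized reads. This rank depends on the annotation, because retained introns of annotated transcripts add to the length. Hnrnpa0 has 2678 such bases from 1 transcript, and Hnrnpk has 6466 from 34 transcripts. The call was close to the threshold and did not hold when adjusted over every gene with a p-value (adjusted p = 0.0838) or over genes of at least 5 CPM (adjusted p = 0.0538).

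The promoter of Hnrnpa0 is shown beside those of Clk2 and Clk4, the 2 kinases with an entry in the table, because these genes lay on opposite sides of the sham libraries. Each line gives the 250 bases before the RefSeq start (GRCm38.p6), 5′ to 3′ on the strand of the gene, at chr13:58128557-58128806 for Hnrnpa0 (minus strand), chr3:89164545-89164794 for Clk2 (plus strand) and chr11:51262864-51263113 for Clk4 (plus strand). Capitals mark the motifs searched on both strands: the cyclic AMP response element TGACGTCA, the heat shock element GAANNTTC, the CCAAT box CCAAT, the GC box GGGCGG and the TATA box TATAAA.
Hnrnpa0: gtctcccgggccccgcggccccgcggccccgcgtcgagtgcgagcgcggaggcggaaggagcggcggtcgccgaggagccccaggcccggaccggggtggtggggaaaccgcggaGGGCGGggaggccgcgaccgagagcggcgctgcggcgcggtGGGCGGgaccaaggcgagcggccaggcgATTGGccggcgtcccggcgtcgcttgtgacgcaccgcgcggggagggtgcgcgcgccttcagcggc
Clk2: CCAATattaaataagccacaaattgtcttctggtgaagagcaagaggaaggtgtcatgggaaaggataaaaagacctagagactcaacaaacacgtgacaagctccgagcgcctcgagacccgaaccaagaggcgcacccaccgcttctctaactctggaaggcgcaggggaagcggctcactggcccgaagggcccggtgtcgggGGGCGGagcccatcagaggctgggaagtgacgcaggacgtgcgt
Clk4: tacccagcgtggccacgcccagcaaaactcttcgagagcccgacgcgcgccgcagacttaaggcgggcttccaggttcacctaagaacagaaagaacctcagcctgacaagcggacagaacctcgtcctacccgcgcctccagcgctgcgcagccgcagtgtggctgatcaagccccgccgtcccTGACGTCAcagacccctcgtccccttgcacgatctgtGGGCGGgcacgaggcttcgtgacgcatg
The Hnrnpa0 promoter holds 2 GC boxes and 1 CCAAT box, here read on the opposite strand, and no TATA box. Clk2 holds 1 CCAAT box and 1 GC box, and Clk4 holds 1 cyclic AMP response element and 1 GC box. RefSeq entries of 250 bases before to 50 after the start were matched for 39 of the 45 genes. Among these, Clk4 was the only one with the cyclic AMP response element, which stood in 1.79% of all 32851 entries. The heat shock element was found in 5 of the 39 genes (Hnrnpa2b1, Hnrnpf, Hnrnpl, Sf3b2 and Srsf9), or 12.8%, against 7.86% of all entries. GC boxes were found in 76.9% against 35.7%, CCAAT boxes in 53.8% against 37.4% and TATA boxes in 15.4% against 13.6%. The shares of the 39 genes count a gene when any of its entries matched, while the background counts single entries. A gene with several entries has more chances to match, so the 2 kinds of share are not strictly comparable. A match describes the letters only.

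Hnrnpc, which packages nascent RNA and binds runs of uridine, was close to the threshold without passing it. It lies on chromosome 14 (52073377 to 52104028, minus strand, GRCm38). It had 1912 and 2243 normalized reads in the sham libraries and 3215, 3235 and 2945 in the stroke libraries. The groups were well apart, with a log2 fold change of 0.59 (standard error 0.19, adjusted p = 0.0986). Hnrnpab, a regulator of RNA transport and stability in brain, had 3500 and 2646 against 4283, 4143 and 4330, with a log2 fold change of 0.47 (standard error 0.21, adjusted p = 0.361). Hnrnpa2b1, which carries messages along dendrites, had 5710 and 5618 against 6944, 7965 and 6449, with a log2 fold change of 0.33 (standard error 0.19, adjusted p = 0.596).

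Hnrnpa1, the best known splicing silencer protein of the family, had the largest fold change of all 43 genes and a wide error. It had 275 normalized reads in sham A and 1583 in sham B, and 2119, 2265 and 1911 in the stroke libraries. Sham A alone lay far below, and the log2 fold change of 1.18 (SE 0.55, adjusted p = 0.397) did not pass. Relative to sham B alone the log2 ratio of the stroke mean was 0.41, and relative to sham A alone it was 2.93.

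Hnrnpa3, a close relative that binds trafficking signals in RNA, had 695 normalized reads in sham A and 3752 in sham B, against 3537, 3552 and 2859 in the stroke libraries. Its 3 stroke libraries were below sham B and above sham A. Hnrnpk, a poly(C)-binding hnRNP that links signalling to transcription and translation, repeated this order with 3056 and 9084 against 8430, 7489 and 7179. Hnrnpf, which binds G-tracts, was the least abundant tested hnRNP, with 134 and 240 normalized reads in the sham libraries and 278, 313 and 372 in the stroke libraries. Its log2 fold change was 0.78 (SE 0.35, adjusted p = 0.342). Those of Hnrnpa3 and Hnrnpk were 0.58 (SE 0.54, adjusted p = 0.854) and 0.34 (SE 0.41, adjusted p = 0.913).

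The lowest fold changes of the hnRNPs were near 0. Hnrnpr, which acts in axonal RNA transport, had 1435 and 2778 normalized reads in the sham libraries and 2010, 1981 and 1993 in the stroke libraries, so the stroke libraries sat together between the sham libraries. Its log2 fold change was -0.08 (SE 0.31, adjusted p = 0.988). Hnrnpl, which binds CA repeats, had a log2 fold change of -0.07 (standard error 0.22, adjusted p = 0.983). Hnrnpu, a nuclear scaffold protein and the gene with the highest mean of the 43, had 8995 and 9930 normalized reads against 10762, 10195 and 9558. Stroke C lay within the range of the sham libraries, and the log2 fold change was 0.10 (SE 0.18, adjusted p = 0.951).

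The other hnRNPs had positive fold changes that did not pass. Hnrnpll, a regulator of exon skipping first known from T cells, had a log2 fold change of 0.49 (standard error 0.28), and Hnrnpdl, a relative of the RNA decay factor AUF1 that Hnrnpd encodes, of 0.45 (SE 0.24). Hnrnpd itself was at 0.18 (SE 0.24). The G-tract binders Hnrnph1, Hnrnph2 and Hnrnph3 were at 0.26 (SE 0.20), 0.34 (SE 0.28) and 0.19 (SE 0.23). Hnrnpm was at 0.26 (SE 0.21), and the relatives of Hnrnpu, Hnrnpul1 and Hnrnpul2, at 0.08 (SE 0.19) and 0.17 (SE 0.17).

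**Figure D3:**
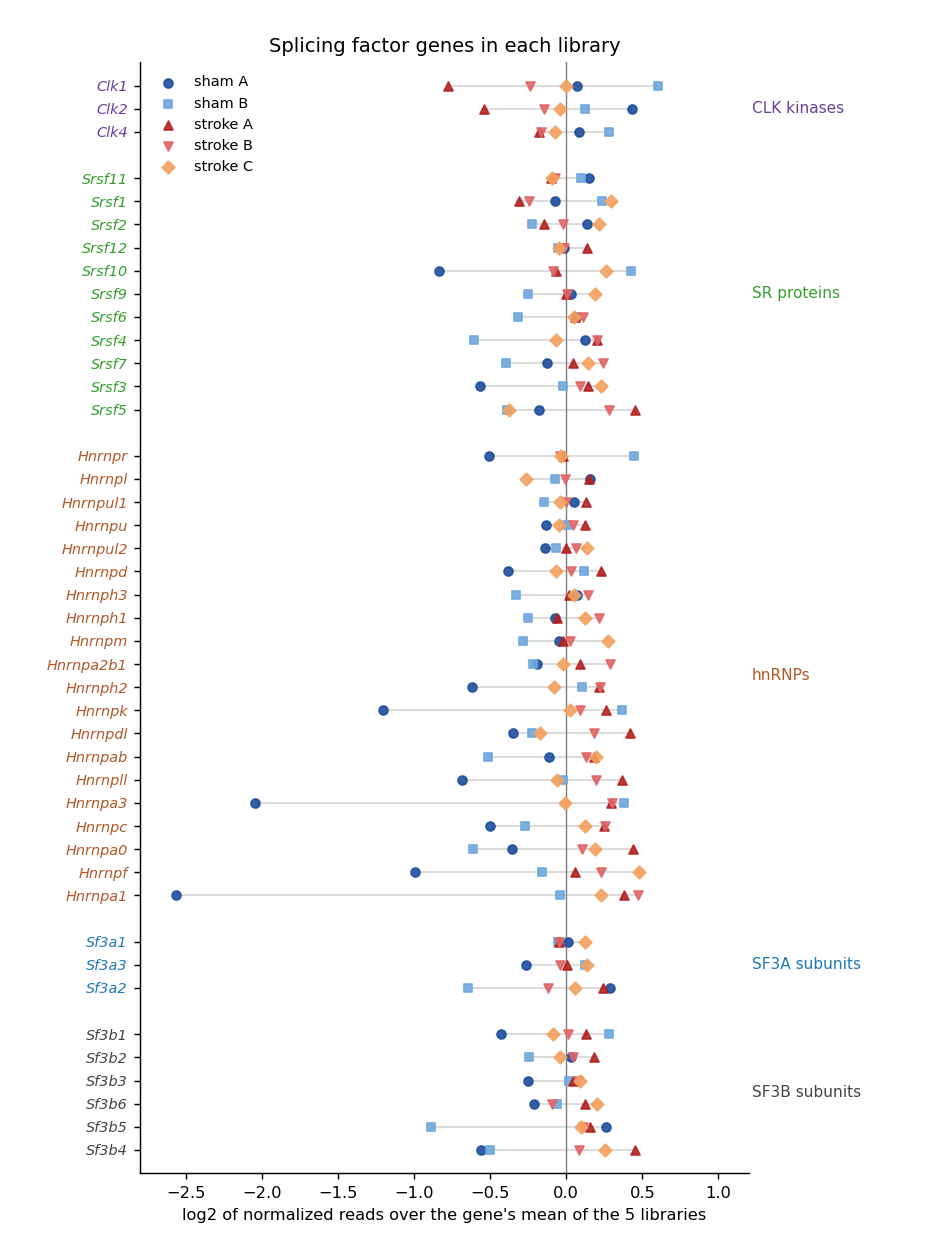
Level of each of the 43 tested genes in each library, as log2 of normalized reads over the gene's mean of the 5 libraries (horizontal axis). Blue marks are sham libraries and red to orange marks are stroke libraries. The marks of sham A lie far to the left for Hnrnpa1, Hnrnpa3, Hnrnpk, Hnrnpf and Srsf10, while for the CLK kinases all stroke marks lie left of both sham marks.

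Several genes thus had 1 sham library far from the other. Hnrnpa1 was 5.74-fold, Hnrnpa3 5.39-fold and Hnrnpk 2.97-fold lower in sham A than in sham B. Of the 14945 genes with recovered reads, 3.97% had a log2 ratio of sham A over sham B as low as that of Hnrnpa1, and 6.93% one as low as that of Hnrnpk. Genes of this kind often have processed pseudogenes, intronless copies of their message elsewhere in the genome, and a read from such a gene can align to a copy as well. The sources used here do not say how the authors treated reads that align to several places, so the levels of these genes are uncertain. A copy was counted as near-identical when a pseudogene transcript in GENCODE vM21 aligned to the coding sequence over at least 200 bases with at least 95% identity. Hnrnpa3 had 21 such copies, Hnrnpf 6, Srsf3 3, and Hnrnpa1, Hnrnpk and Srsf10 2 each. Hnrnph2, Hnrnpr, Sf3b4 and Srsf5 had 1 each, and the other 33 tested genes had none.

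For 2 of these genes, 75 bases of the coding sequence are shown above the same stretch of a near-identical copy, not necessarily the closest. They show what an aligner has to tell apart. Hnrnpa3 lies on chromosome 2 (75659261 to 75669407, plus strand) and its copy Gm11847 on chromosome 4 (12232833 to 12233951, plus strand), with an identity of 98.1% over 1137 aligned bases. Srsf3 lies on chromosome 17 (29032628 to 29043373, plus strand) and its copy Gm9761 on chromosome 3 (116560935 to 116561426, minus strand), with 99.6% over 492 bases. All are GRCm38, 5′ to 3′ on the strand of each gene, from base 301 of the coding sequence for Hnrnpa3 and base 209 for Srsf3, and capitals mark the base that differs.
Hnrnpa3: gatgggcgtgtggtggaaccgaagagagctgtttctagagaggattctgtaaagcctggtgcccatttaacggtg
Gm11847: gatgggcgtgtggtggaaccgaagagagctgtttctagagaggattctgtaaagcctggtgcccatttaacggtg
Srsf3: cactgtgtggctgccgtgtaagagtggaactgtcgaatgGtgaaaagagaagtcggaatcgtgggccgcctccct
Gm9761: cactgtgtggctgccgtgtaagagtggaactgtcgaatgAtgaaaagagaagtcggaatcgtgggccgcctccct
The stretches of Hnrnpa3 and Gm11847 are the same in all 75 bases, and those of Srsf3 and Gm9761 differ at 1.

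The number of copies went with the difference between the sham libraries. All 6 genes with at least 2 copies were lower in sham A than in sham B, with a median log2 ratio of -1.42, and 13 of the 33 genes without a copy were, with a median of 0.07. Over all protein-coding genes with recovered reads and a mean of up to 2500, the median log2 ratio was 0.16 for the 11429 genes without a copy, -0.37 for the 552 with 1 copy, -0.70 for the 159 with 2 to 4 and -1.15 for the 40 with 5 or more. The deposited fold changes shifted with it. Their medians in those classes were -0.03, 0.17, 0.43 and 0.58. Why sham A differed was not tested.

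The genes with copies had higher fold changes than those without, and the excess lay on the side of sham A. For the 6 genes with at least 2 copies the median log2 ratio of the stroke mean was 1.29 over sham A and 0.00 over sham B. For the 33 genes without a copy the medians were 0.04 over sham A and 0.20 over sham B, and their median deposited log2 fold change was 0.17. The 14 hnRNPs without a copy had a median log2 fold change of 0.26, with 13 positive, and their medians were 0.24 over sham A and 0.35 over sham B. In 8 of these 14 (57.1%), every stroke library lay above both sham libraries. The share was 12.5% of all genes with recovered reads and 14.3% of those with at least 5 CPM. The share among all genes without a copy was not counted. Hnrnpa0, Hnrnpc and Hnrnpab are among the 8.

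**Figure D4:**
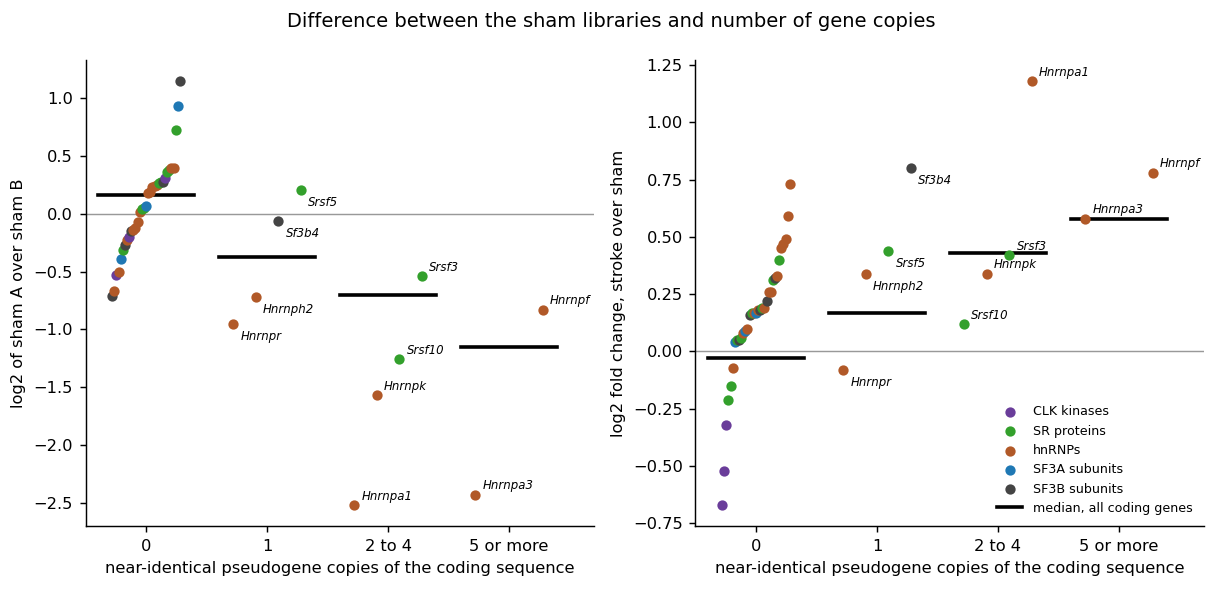
Left, log2 of sham A over sham B, and right, deposited log2 fold change of stroke over sham, for the 43 tested genes by number of near-identical pseudogene copies (horizontal axis, points spread sideways by value within a class). Black lines are the medians of all protein-coding genes in the class, from 0.16 down to -1.15 on the left and from -0.03 up to 0.58 on the right.

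The SF3A and SF3B subunits included one gene near the threshold and no call. Sf3b4 (ENSMUSG00000068856, chromosome 3, 96172332 to 96177564, plus strand, GRCm38) encodes the subunit that contacts the message just upstream of the branch point. It had 227 and 236 normalized reads in the sham libraries and 456, 354 and 398 in the stroke libraries. The sham libraries were nearly equal, every stroke library lay well above both, and the log2 fold change was 0.80 (SE 0.26, adjusted p = 0.0889). Sf3b4 has 1 near-identical copy, and its log2 ratio of sham A over sham B was -0.06.

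The other SF3B subunits had smaller changes. Sf3b1, the scaffold of the complex and its most abundant member, had 6160 and 10053 normalized reads in the sham libraries and 9079, 8348 and 7813 in the stroke libraries, which lay between them (log2 fold change 0.05, SE 0.27, adjusted p = 0.989). Sf3b2, which binds Sf3b4, had 5892 and 4867 against 6540, 5939 and 5615 (log2 fold change 0.16, SE 0.20, adjusted p = 0.915). Sf3b3, a propeller-shaped subunit, had 1607 and 1935 against 1971, 2017 and 2037. All its stroke libraries lay above sham B by a small margin, with a log2 fold change of 0.18 (standard error 0.20, adjusted p = 0.899). Sf3b6, which touches the branch point adenosine, had 705 and 785 against 888, 766 and 941 (log2 fold change 0.22, SE 0.22, adjusted p = 0.886). Sf3b5, the smallest subunit, had 560 in sham A, 252 in sham B and 519, 503 and 499 in the stroke libraries. Here sham B stood apart rather than sham A, and the log2 fold change was 0.32 (SE 0.36, adjusted p = 0.907).

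The SF3A subunits overlapped between the groups in all 3 genes. Sf3a1, which also contacts the U1 particle, had 1850 and 1762 normalized reads in the sham libraries and 1777, 1777 and 2001 in the stroke libraries. Sf3a2 had 1069 and 560 against 1033, 804 and 911, with sham B again the low library. Sf3a3 had 544 and 714 against 658, 637 and 719. Their log2 fold changes were 0.04 (SE 0.19, adjusted p = 0.99), 0.17 (SE 0.32, adjusted p = 0.957) and 0.09 (SE 0.24, adjusted p = 0.972). Summed over the 3 genes, normalized reads were 3463 and 3036 in the sham libraries and 3468, 3217 and 3631 in the stroke libraries, a ratio of 1.06. The sum of the 6 SF3B genes was 15151 and 18127 against 19453, 17927 and 17303, a ratio of 1.1.

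Other parts of the splicing machinery gave no call in the authors' deposited table. Of 94 further genes in 4 lists, 0 passed the authors' DESeq2 test, against 1.56% of all tested genes. An unadjusted p below 0.05 was reached by 7, against 10.5% of all, and 60 (63.8%) had a positive fold change, against 47.2%, with a median of 0.09. Reads were recovered for 78 of the 94. In 23 of these (29.5%) every stroke library lay above both sham libraries and in 6 (7.69%) every one lay below. The shares were 12.5% and 12.4% of all genes with recovered reads, and 14.3% and 9.5% of those with at least 5 CPM. For the 29 core particle and U2 auxiliary genes the median log2 fold change was 0.14, with 23 positive. The highest deposited value of this list was that of U2af1, which recognises the 3′ splice site, at 1.15 (SE 0.43, adjusted p = 0.201). The value and its rank changed with the sham library: U2af1 had 134 normalized reads in sham A and 403 in sham B against 632, 552 and 597 in the stroke libraries, a log2 ratio of 2.13 over sham A and 0.56 over sham B. Its partner U2af2 was at 0.77 (SE 0.26, adjusted p = 0.112), with 0.49 over sham A and 1.11 over sham B, the highest over sham B of the 27 with recovered reads. For the 37 neuronal and other RNA-binding regulators the median was 0.13, with 24 positive. For the 20 SR kinases and SR-related genes it was -0.03, with 9 positive, and for the 8 genes of the exon junction complex it was 0.00, with 4 positive. Prpf8 and Snrpn, the most abundant core genes, were at 0.28 (SE 0.26) and -0.21 (SE 0.21). Son and Srrm2, the large scaffold proteins of nuclear speckles, were at 0.03 (SE 0.18) and 0.02 (SE 0.24). Celf2 and Ddx5, a regulator of neuronal exons and an RNA helicase, were at 0.07 (SE 0.24) and 0.28 (SE 0.28). Upf1 and Upf2, factors of nonsense-mediated decay, were at 0.31 (SE 0.21) and -0.04 (SE 0.23).

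A second fit gave no call among the 43 genes with all 5 libraries. Limma with a variance trend, on log2 of normalized reads plus 1 over the 14945 genes with recovered reads, called 2 genes in all (0.0134%). It gave 7 of the 43 genes an unadjusted p below 0.05, against 7.55% of all genes fitted. Hnrnpa0 had a log2 fold change of 0.73 in limma (unadjusted p = 0.00471, adjusted p = 0.564). Leaving out sham A left 8 of the 43 genes called (Hnrnpa0, Hnrnpab, Hnrnpr, Sf3a2, Sf3b4, Sf3b5, Srsf4 and Srsf7), of which 7 were higher in stroke and Hnrnpr was lower (log2 fold change -0.48), while 17.8% of all genes were called. Leaving out sham B left 6 called (Hnrnpa1, Hnrnpa3, Hnrnpc, Hnrnpf, Hnrnpk and Srsf3), all higher in stroke, against 2.69% of all genes. Both fits rest on 1 sham library, which is assumed to vary as the stroke libraries do. In the list without sham B, every gene except Hnrnpc has at least 2 near-identical copies. Over the protein-coding genes classed by copies above, those with 2 to 4 had a median log2 stroke ratio of 0.81 over sham A. Over sham B it was 0.18. With 5 or more copies the medians were 1.26 and 0.19. The part of the copies in this list was not tested. Of the 43 genes, none was in both lists. The share of the 43 called without sham A lay near that of all genes. Hnrnpa0 had log2 fold changes of 0.86 without sham A and 0.60 without sham B, Sf3b4 of 0.76 and 0.82, and Clk1 of -0.94 and -0.41. Hnrnpa3 went from -0.19 without sham A to 2.24 without sham B. Without stroke A, B or C in turn, 0 of the 43 genes and 0 of all genes were called.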

How the data were processed

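RNA was sequenced from 2 sham and 3 stroke libraries made with a stranded mRNA kit, per the labels' protocols. Per the submitters' processing notes, the tools were STAR 2.5.2b, featureCounts 1.5.1, DESeq2 1.14.1 and FastQC, with genome build GRCm38. How multiply aligned reads were counted, the strandedness used and the annotation release are unstated in the sources used here. The authors deposited 1 row per gene: a signal (the mean over the libraries of counts divided by size factors, with a sum of 2.65e+07), a log2 fold change with its error on that log2 scale, the Wald statistic (a score), a p-value and an adjusted p-value. CPM are the means per 1e+06 of that sum. A gene is called at an adjusted p below 0.05. Total reads per library are not given. The file does not say which group is the numerator. A single read in a single library gave 3 mean values with positive and 2 with negative fold changes, so a positive fold change was taken as higher in stroke.

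Whole reads per library were recovered in Python 3.11.15 (numba 0.67.0): size factors came from 2538 genes with few reads, and 5 whole numbers were taken as the reads of a gene when no other set matched the deposited mean, the fold change to within 6e-10 and a dispersion within 0.01 of the slope implied by the authors' DESeq2 shrinkage. Of 15134 tested genes tried, 14945 were recovered, 182 had no solution and 7 had several. Every tested gene with a mean of up to 2500 was tried, as was each of the 43 genes. Of the other splicing genes, 16 with means of 6650 or more were not tried. Of the 43 genes, 25 were fixed by the fold change alone, and the others, with up to 179 candidates, by the dispersion (largest accepted gap 0.00275, smallest rejected gap 0.0237). The recovery and the limma fit were tested on simulated data.

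Limma 3.58.1 (R 4.3.3) was run on log2(normalized reads + 1). Copies were sought with minimap2 2.31 against GENCODE vM21. Settings tried were the genes adjusted over, a minimum of 5 CPM, a null fold of 1.5, centring on the median, a pseudocount of 5 and leaving out each library. The genes and lists were chosen with earlier results of these data known. The rule for named genes took every call, the highest and lowest fold change and the most abundant gene of each subgroup, all CLK, SF3A and SF3B genes, the pseudogenes and, of the other splicing lists, calls and the 2 most abundant genes. Other genes were named after their values were seen, as was the count of pseudogene copies. P-values measure the spread between these libraries, which may be technical.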

Additional observations from a re-analysis of the deposited data

How the results depend on the processing

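The count of called genes went from 1 to 0 when p-values were adjusted over every gene with a p-value (Hnrnpa0 adjusted p = 0.0838), over genes of at least 5 CPM (adjusted p = 0.0538), and in the Wald test against a fold of 1.5 (adjusted p = 1). It stayed at 1 after centring on the median of tested genes, which was -0.025 (adjusted p = 0.034). The count among other splicing genes was 0 in all 5 settings. The median log2 fold change of 0.19 was 0.21 after centring and 0.17 for genes without a near-identical copy. Leaving out each library in turn gave medians of 0.18 to 0.27, the highest without sham B. These leave-one-out medians and the setting without copies were chosen after seeing the data. The limma count was 0 with a pseudocount of 5, and 0 to 8 when each library was left out, with 8 without sham A and 6 without sham B. The authors' own test could not be repeated with a library left out. No paired analysis was possible because the recovered values per library cannot be tied to the replicate numbers in the labels. With 2 sham libraries that differ from each other, a change smaller than their difference cannot be told from it, and a standard error of 0.23 means that changes of the median size found here were not detectable in single genes.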
